A study of Nasonia vitripennis with 2 samples.

Results

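Tandem CpGs are CpG sites that follow each other without a base between them, so that the second site starts 2 bp after the first and both together spell the 4-letter palindrome CGCG. In the table of CpG counts of Nasonia vitripennis, a parasitoid wasp, all pairs of listed CpGs on the same scaffold whose positions differ by 2 were taken, and those with 10 or more reads at both sites were kept. Of 1613602 listed tandem pairs, 821315 (50.9%) met this criterion. They were 821315 of the 7225726 pairs of neighboring CpGs in which both sites had 10 or more reads. The methylation of a site was not used in this choice.

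The counts come from whole-genome bisulfite sequencing (WGBS-seq) of genomic DNA from whole bodies of 24 h adult females of strain AsymCX, which is the strain of the genome project and is cured of Wolbachia. The DNA of 50 females was pooled, and the 2 lanes (Genome Analyzer IIx and HiSeq2000) were summed by the authors. A single pool has no biological replicate, so sets of sites were compared by their counts and no test between sets was made. Intervals are 95% Wilson intervals unless stated otherwise. They cover counting error only, and they are too narrow where neighboring CpGs share reads.

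DNA methyltransferases place a methyl group on the C of a CpG, and because the CpG reads the same on both strands, the mark can be copied to the new strand after replication. In insects such as Nasonia the mark lies mainly in the bodies of transcribed genes, and most of the genome is free of it. A methylated C that loses its amino group becomes a T, which is known to deplete CpGs from methylated sequence over evolutionary time. Bisulfite turns non-methylated cytosines into bases that are read as T, so an unconverted C counts as a methylated read.

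The tandem pairs were set against neighboring pairs of CpGs 3 to 6 bp apart, with no other CpG between them. The letters that the listed positions fix are shown here to make the compared sequences plain. Capitals mark the CpGs, and n stands for a base that the table does not give.
Tandem pairs, 2 bp: CGCG
Pairs 3 bp apart: CGnCG
Pairs 4 bp apart: CGnnCG
Pairs 5 bp apart: CGnnnCG
Pairs 6 bp apart: CGnnnnCG

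Tandem CpGs were common and almost entirely non-methylated. Of the 14024488 CpGs listed, 2917548 (20.8%) lay in a tandem, and 2 bp was the most frequent distance between neighboring CpGs in the comparison. The 1613602 listed tandem pairs compare with 1157651 pairs at 3 bp, 895757 at 4 bp, 715220 at 5 bp and 745339 at 6 bp. The kept tandem pairs held 1500764 CpGs, or 10.7% of all CpGs and 19.2% of the covered CpGs (sites with 10 or more reads).

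Methylated CpGs (mCpGs) are covered CpGs with more than 10% unconverted Cs, as the study defines them. The CpGs of the tandem pairs had 2924 mCpGs, or 0.195% (interval 0.188% to 0.202%), against 113962 of 6282513 covered CpGs in no tandem, or 1.81% (interval 1.80% to 1.82%). Over all covered CpGs the percentage was 1.5%. Tandem CpGs therefore made up 19.2% of the covered CpGs but 2.50% of the mCpGs (interval 2.41% to 2.59%). Counted in reads, 91336 of 33514836 were methylated at tandem CpGs, a methylation percentage of 0.273%, against 1.69% at covered CpGs in no tandem. The value for tandem CpGs includes the reads of their mCpGs. It lay below the rate of unconverted Cs that the study gives for its unmethylated lambda DNA. The study gives a lower rate than that of lambda DNA for non-CpG positions of the wasp genome. Incomplete conversion cannot be told apart from methylation in the scattered methylated reads of tandem CpGs. No methylated read was seen at 97.2% of the tandem CpGs and at 94.5% of those in no tandem.

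Tandem CpGs were read somewhat less often and lay in denser sequence. The median was 17 reads at the tandem CpGs and 20 reads at covered CpGs in no tandem. The share of sites that reached 10 reads was 52.7% for CpGs in a tandem and 56.6% for the others. Within 500 bp on either side, the median tandem CpG had 82 other CpGs and the median covered CpG in no tandem had 69. The part of depth in these percentages was not tested beyond the alternatives given in the closing section.

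The tandem mCpGs lay mostly in sequence of low CpG density, as the other mCpGs did. Their median was 23 other CpGs within 500 bp on either side, against 20 for mCpGs in no tandem. Their methylation percentages spread over the whole range, with a median of 65.9% (quartiles 23.1% and 86.4%), against 72.8% for mCpGs in no tandem (quartiles 44.2% and 88.2%). Levels above 75% were found at 1189 of 2924 tandem mCpGs, or 40.7% (interval 38.9% to 42.5%), and at 46.6% of mCpGs in no tandem (interval 46.3% to 46.9%). Levels of up to 25% were found at 26.3% of tandem mCpGs (interval 24.7% to 27.9%) and at 13.8% of mCpGs in no tandem (interval 13.6% to 14.0%). Tandem mCpGs had fewer reads, with a median of 24 against 29. In 629 tandem pairs, described below, only 1 site was an mCpG, and in 577 of them its level was at most 25%. It rested on 2 methylated reads in 451. Those 629 pairs lay in CpG-rich sequence, with a median of 68 other CpGs. Fully methylated sites made up 4.62% of tandem mCpGs and 5.36% of mCpGs in no tandem.

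**Figure D1:**
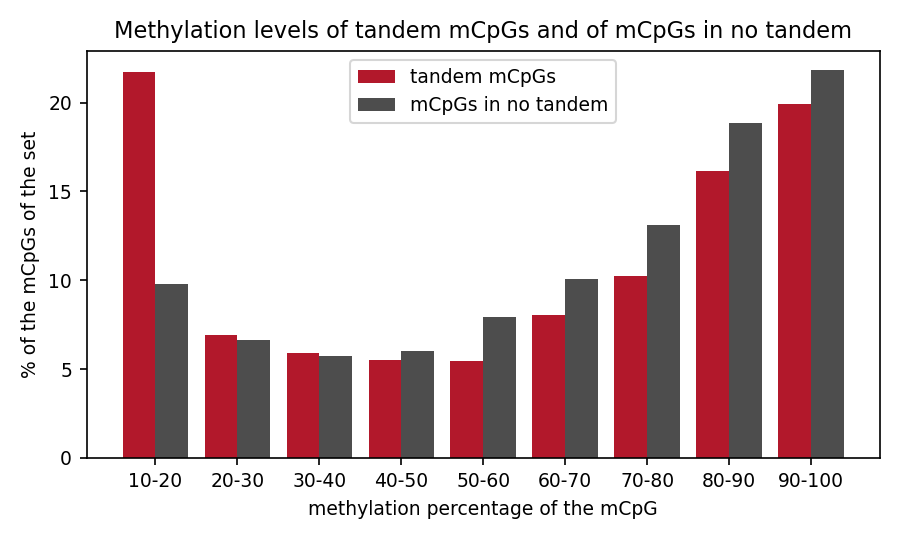
Percentage of the mCpGs of each set (vertical axis) by methylation percentage in classes of 10 points, with the lower bound included (horizontal axis), for 2924 tandem mCpGs and 113962 mCpGs in no tandem. The lowest class holds 21.8% of the tandem mCpGs and 9.79% of the others, and the highest class holds 19.9% and 21.8%.

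At equal local CpG density, tandem pairs were still less often methylated than pairs 3 to 6 bp apart. Local CpG density was taken as the number of other CpGs within 500 bp on either side of a pair, and the percentage of mCpGs was counted over both sites of every pair, so that a CpG of 2 pairs counts in each. The percentage was 0.181% for tandem pairs (95% counting interval 0.172% to 0.189%) and 0.445% for the 1654451 pairs 3 to 6 bp apart (interval 0.438% to 0.452%). When the pairs 3 to 6 bp apart were weighted to the local CpG densities of the tandem pairs, their percentage was 0.293% (95% counting interval 0.287% to 0.299%). The tandem pairs stood 0.113 percentage points below it (difference -0.113, counting interval -0.123 to -0.102), a ratio of 0.616. The ratio of pairs 3 to 6 bp apart over tandem pairs was 2.46 before weighting and 1.62 after it.

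The weighted percentage was above that of the tandem pairs at each of the 4 distances. It was 0.296% at 3 bp, 0.268% at 4 bp, 0.289% at 5 bp and 0.321% at 6 bp. The lowest lower bound of their counting intervals was 0.256%, at 4 bp, against an upper bound of 0.189% for the tandem pairs. The difference held in sequence of low and middle density. With fewer than 20 other CpGs around, 10.4% of the sites of tandem pairs were mCpGs (interval 9.82% to 10.9%), against 14.6% for pairs 3 to 6 bp apart (interval 14.3% to 15.0%). With 20 to 29 it was 2.10% against 3.68%, with 30 to 39 it was 0.666% against 1.29%, and with 40 to 59 it was 0.109% against 0.317%.

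In dense sequence the intervals met. With 80 to 99 other CpGs, 0.0289% of the sites of tandem pairs were mCpGs (interval 0.0251% to 0.0334%), against 0.0261% for pairs 3 to 6 bp apart (interval 0.0233% to 0.0292%). This class alone held 329925 tandem pairs, or 40.2% of them. With 100 or more, the values were 0.0258% and 0.0265%. A difference was not detectable here. With 80 to 99 other CpGs, 191 tandem pairs had a single mCpG and 0 had an mCpG at both sites. Of the pairs 3 to 6 bp apart, 296 had a single mCpG and 4 had both. Percentages that rest almost only on single mCpGs cannot show whether these sets differ in methylation in dense sequence.

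**Figure D2:**
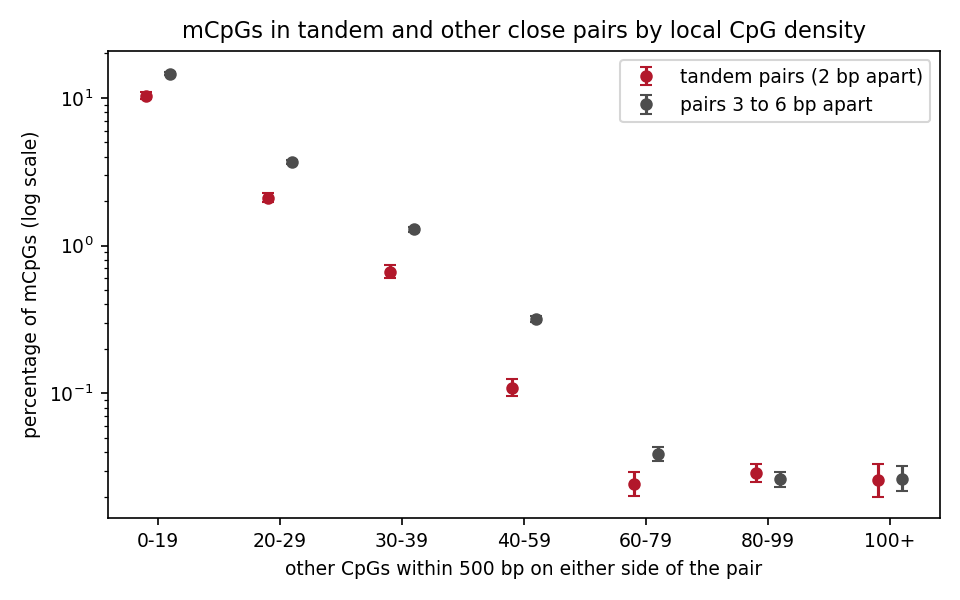
Percentage of mCpGs among the sites of covered pairs (vertical axis, log scale) by the number of other CpGs within 500 bp on either side (horizontal axis), for tandem pairs and for pairs 3 to 6 bp apart. Points are percentages and bars are 95% Wilson intervals. Tandem pairs lie lower up to 79 other CpGs, with 10.4% against 14.6% in the class of lowest density, and the intervals overlap from 80 other CpGs.

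Runs of 3 to 9 CpGs had lower percentages than single tandem pairs. The listed tandem CpGs formed 1303946 runs, of which 1079594 (82.8%) were single tandem pairs and the longest had 16 CpGs. Of the covered CpGs in single tandem pairs, 0.244% were mCpGs (2829 of 1161057, interval 0.235% to 0.253%). Runs of 3 CpGs had 0.0414% (108 of 260938), and runs of 4 had 0.0258% (19 of 73627). Runs of 5 had 8 mCpGs among 21655 covered CpGs, and runs of 6 to 9 had 2 among 18444. Runs of 10 or more had 1 mCpG among 655, and their interval of 0.0270% to 0.860% is too wide to place them. The longer runs also lay in denser sequence, with a median of 87 other CpGs around runs of 3 and 90 around runs of 5, against 82 around single pairs. Their depth was lower, with a median over runs of 9.67 reads per CpG in runs of 3 and 8.4 in runs of 5, against 10 in single pairs. The part of either in the percentages by run length was not tested.

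**Figure D3:**
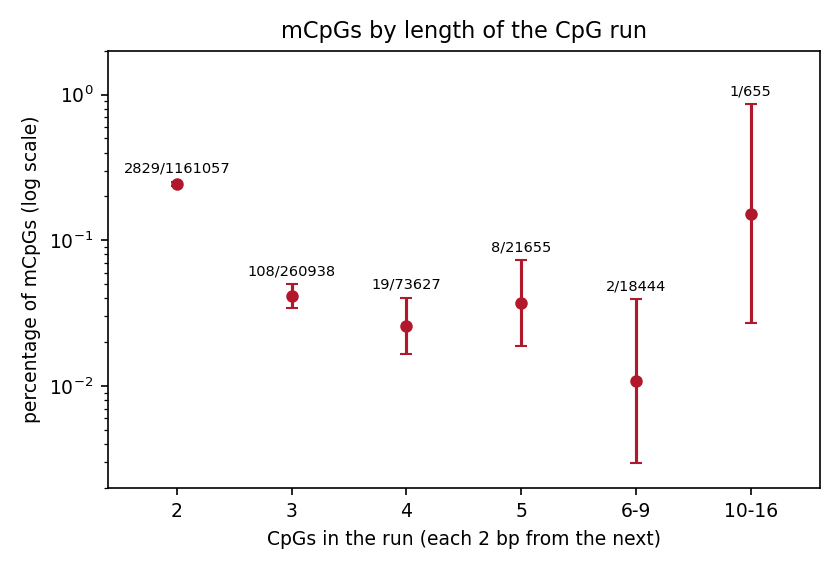
Percentage of mCpGs among covered CpGs (vertical axis, log scale) by the number of CpGs in a run in which each CpG lies 2 bp from the next (horizontal axis). Points are percentages, bars are 95% Wilson intervals, and the numbers give mCpGs over covered CpGs. Single pairs stand at 0.244%, above the intervals of runs of 3, 4, 5 and 6 to 9 CpGs.

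The 3 longest runs with all CpGs covered had no mCpG. The longest, on SCAFFOLD81 from 239338 to 239361, had 12 CpGs, whose positions fix the sequence shown here as the longest tandem measured.
SCAFFOLD81 run: CGCGCGCGCGCGCGCGCGCGCGCG
Its CpGs had 19 to 39 reads each, and 1 of 354 reads was methylated (0.282%, interval 0.0499% to 1.58%). The next were runs of 11 CpGs on SCAFFOLD3 from 1726360 to 1726381 and on SCAFFOLD4 from 2546160 to 2546181. The run on SCAFFOLD3 had no methylated read among 402. If the reads were independent, this would leave room for 0.746% (interval 0% to 0.947%). The run on SCAFFOLD4 had none among 255, which on the same terms leaves room for 1.18% (interval 0% to 1.48%). The reads of these 3 runs were summed over CpGs that share reads, so these limits and intervals are too narrow.

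Among runs with all CpGs covered, none of 16889 runs of 4, 3898 of 5, 2277 of 6 to 9 and 51 of 10 or more consisted of mCpGs only. Among runs of 3, 8 of 82459 with all CpGs covered had 3 mCpGs, and the 3 with the most reads are given here with the reads of each CpG. On SCAFFOLD116, 25 of 28 reads were methylated at position 535016, 22 of 28 at 535018 and 28 of 30 at 535020, or 89.3%, 78.6% and 93.3%. On SCAFFOLD24, 16 of 27 reads were methylated at 197634, 10 of 27 at 197636 and 16 of 26 at 197638, so that the middle CpG was the lowest at 37.0%. On SCAFFOLD19, 14 of 20 reads were methylated at 3019065, 19 of 20 at 3019067 and 19 of 21 at 3019069. Over the 8 runs, the mean level was 64.4% at the first, 58.1% at the middle and 65.8% at the last CpG.

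When a tandem pair was methylated, its CpGs mostly carried the mark together. In 1169 tandem pairs both sites were mCpGs, in 629 only 1 was, and in 819517 neither was. Of the mCpGs in tandem pairs, 78.8% had an mCpG as partner (interval 77.3% to 80.2%), against 79.6% for pairs 3 to 6 bp apart (interval 79.0% to 80.3%). Weighted to the local CpG densities of the tandem pairs, the share was 79.4% at 3 bp, 76.8% at 4 bp, 74.3% at 5 bp and 74.7% at 6 bp. The share without weighting depended strongly on depth. In pairs whose lower depth was 10 to 19 reads it was 59.7% for tandem pairs (interval 57.0% to 62.4%) and 72.4% for pairs 3 to 6 bp apart (interval 71.3% to 73.5%). With 20 to 39 reads it was 92.2% for tandem pairs (interval 90.5% to 93.7%) and 84.9% for the others (interval 83.9% to 85.8%), and with 40 or more reads it was 92.5% and 84.4%. The order thus turned with depth, in shares that were not weighted by density.

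The 629 tandem pairs with a single mCpG were mostly pairs with few methylated reads in CpG-rich sequence. The mCpG rested on 2 methylated reads in 451 of them, or 71.7% (interval 68.1% to 75.1%), and its level was at most 25% in 577, or 91.7%. Its median level was 14.3%, and the other CpG had no methylated read in 500 pairs (79.5%, interval 76.2% to 82.5%). These pairs had a median of 68 other CpGs around them, against 20 for the pairs of 2 mCpGs and 82 for the pairs without an mCpG. The mCpG was the first CpG in 322 pairs and the second in the rest, a share of 51.2% (interval 47.3% to 55.1%). In a single tandem pair was the mCpG above 75%, or 0.159% of the 629 (interval 0.0281% to 0.895%), against 23 of 771 pairs with a single mCpG at 3 bp (2.98%), 23 of 682 at 4 bp (3.37%), 48 of 700 at 5 bp (6.86%) and 54 of 850 at 6 bp (6.35%).

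In the 1169 tandem pairs of 2 mCpGs the levels followed each other closely. The reads of both CpGs together gave a median methylation percentage of 76.2% (quartiles 49.4% and 89.2%). Pearson's correlation of both levels was 0.864 and Spearman's was 0.839, over pairs that share reads and are not independent replicates. At 3, 4, 5 and 6 bp Pearson's correlation was 0.723, 0.607, 0.627 and 0.590, over 1716, 1351, 1231 and 1566 pairs. Weighting these pairs to the local CpG densities of the tandem pairs of 2 mCpGs gave 0.717, 0.601, 0.629 and 0.584. When pairs with a single mCpG were added, the correlation was 0.911 for 1798 tandem pairs and 0.802, 0.760, 0.704 and 0.679 at 3 to 6 bp.

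In points of methylation percentage, the levels of a tandem pair differed by 9.42 on average (median 6.67). The mean difference was 13.2 at 3 bp, 15.8 at 4 bp, 15.5 at 5 bp and 16.8 at 6 bp. At most 10 points lay between the CpGs in 66.5% of the tandem pairs of 2 mCpGs (interval 63.7% to 69.1%), against 54.4% at 3 bp and 47.6% at 6 bp. More than 25 points lay between them in 7.27% of the tandem pairs (interval 5.92% to 8.90%), against 14.6% at 3 bp and 24.1% at 6 bp. Both CpGs fell into the same class of up to 25%, 50%, 75% or more in 847 tandem pairs, or 72.5% (interval 69.8% to 74.9%), and into the class above 75% in 515 of them. No tandem pair had a first CpG above 75% and a second of up to 25%, while 3 had the reverse.

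The mean difference was smaller in tandem pairs in each of 3 classes of depth. At a lower depth of 10 to 19, 20 to 39 and 40 or more reads, the mean difference in tandem pairs was 11.0, 8.91 and 8.39 points. In pairs 3 to 6 bp apart it was 15.6, 15.4 and 14.4 points. Both CpGs had the same number of reads in 42.9% of all kept tandem pairs, against 33.3% at 3 bp, 27.4% at 4 bp, 23.9% at 5 bp and 20.8% at 6 bp. In pairs of 2 mCpGs the share was 29.9% for tandem pairs, and 25.4%, 17.9%, 15.8% and 15.5% at 3, 4, 5 and 6 bp. Reads were trimmed to 75 bp by the authors, so that nearly every read over a tandem CpG also spans its partner. Most reads over a CpG of a pair 3 to 6 bp apart span its partner too. The mean squared difference in tandem pairs of 2 mCpGs was 1.40 times the value for independent binomial draws at their depths, against 2.42 at 3 bp, 3.52 at 4 bp, 3.52 at 5 bp and 4.06 at 6 bp. The table does not link reads, and the part of shared reads in the agreement was not tested.

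**Figure D4:**
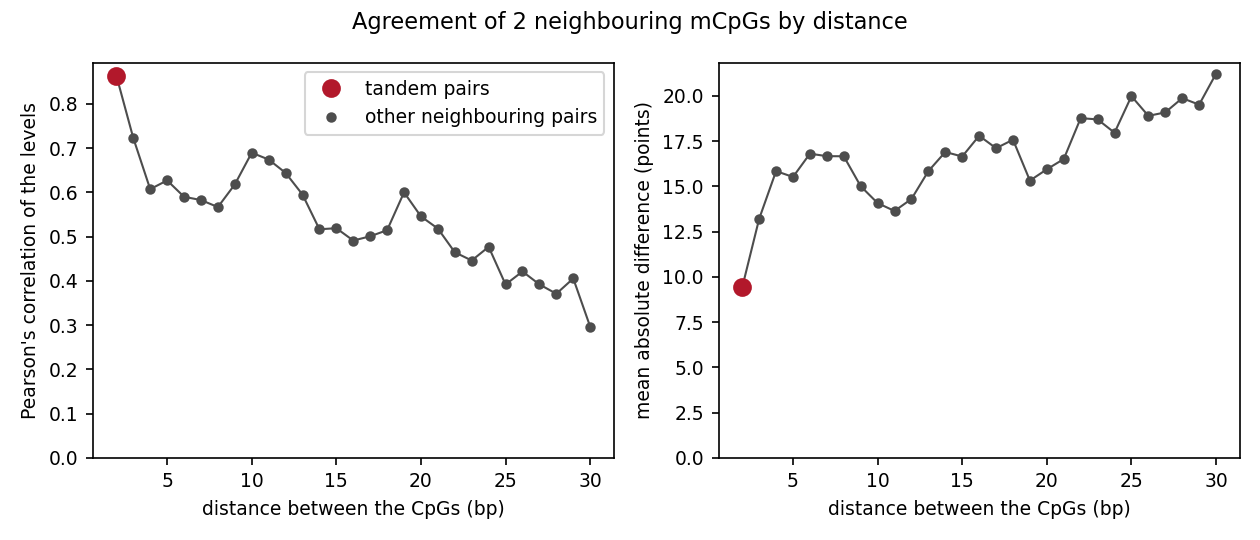
Pearson's correlation of the levels (left) and their mean absolute difference in points of methylation percentage (right) in neighboring pairs of 2 mCpGs, by distance in bp (horizontal axes, 2 to 30). The large point marks tandem pairs, with 0.864 and 9.42 points, and small points joined by a line mark the other distances, with 0.723 and 13.2 points at 3 bp and 0.297 and 21.2 points at 30 bp.

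**Figure D5:**
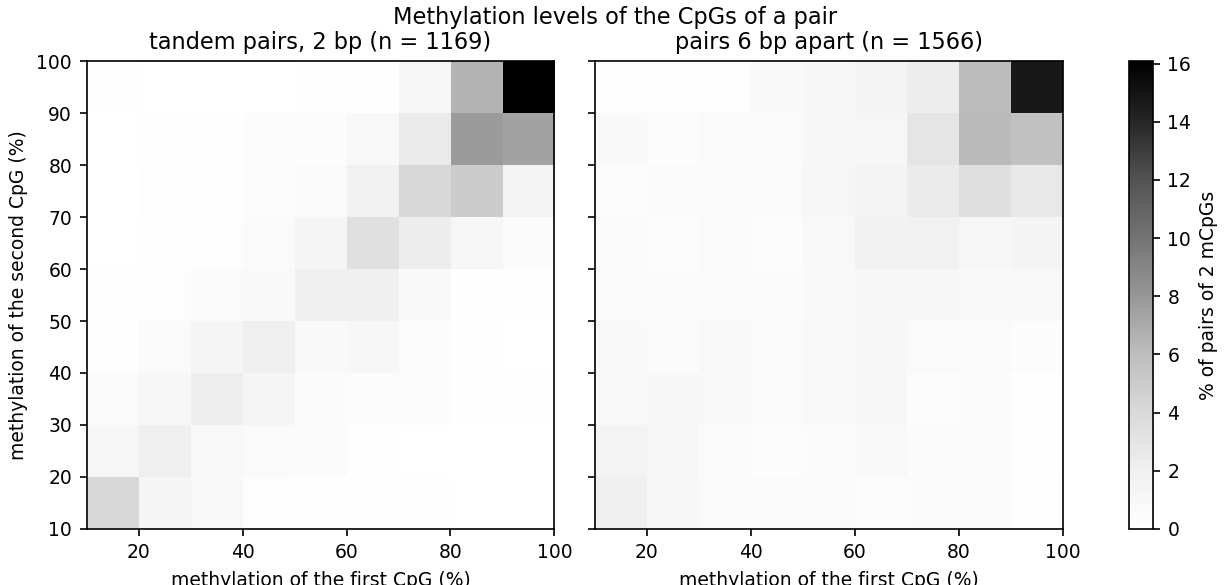
Methylation percentages of both CpGs in pairs of 2 mCpGs, in classes of 10 points, with the first CpG on the horizontal and the second on the vertical axis, for 1169 tandem pairs (left) and 1566 pairs 6 bp apart (right). Shading gives the percentage of the pairs in each class. The tandem pairs gather along the diagonal, with more than 25 points between the CpGs in 7.27% of them, against 24.1% at 6 bp.

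The first and the second CpG, named by scaffold position, had similar mean levels. CGCG reads the same on both strands and the strands were summed. The comparison therefore cannot show an effect of strand or of gene direction. The level was 68.4% on average at the first and 67.7% at the second CpG of the 1169 tandem pairs of 2 mCpGs. The mean difference was 0.67 points, with a standard error of 0.39 over pairs.

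Each pair was also tested for a difference between its CpGs with a two-sided Fisher's exact test of methylated and non-methylated reads, with Benjamini-Hochberg adjustment over all 2475766 pairs 2 to 6 bp apart at 0.05. The test treats the reads of the sites as separate and compares reads of the pool, not samples. It called 12 of 821315 tandem pairs, against 0.0217% of all pairs tested. By distance, the calls were 0.00146% of the tandem pairs, and 0.0182%, 0.0212%, 0.0418% and 0.0557% of the pairs at 3, 4, 5 and 6 bp. Most pairs had no methylated read and could not be called. Of the pairs with at least 1 mCpG, it called 0.667% in tandem (interval 0.382% to 1.16%), 3.9% at 3 bp (interval 3.21% to 4.73%), 4.53% at 4 bp, 7.46% at 5 bp and 7.95% at 6 bp (interval 6.93% to 9.09%). Of the 12 tandem pairs called, 3 had 2 mCpGs and 9 had 1.

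The 5 tandem pairs with the smallest p-values show what such a difference looks like. On SCAFFOLD217, 0 of 30 reads were methylated at position 93284 (which allows a level of up to 10%) and 27 of 33 (81.8%) at 93286 (Fisher's exact p = 4.12e-12, adjusted p = 8.57e-08). This pair lay inside an mCpG cluster, and it is the single pair with an mCpG above 75% beside a site that was no mCpG. On SCAFFOLD19, 2 of 83 reads were methylated at 397200 and 36 of 77 at 397202, and on SCAFFOLD3, 0 of 44 at 810285 (a level of up to 6.82%) and 25 of 40 at 810287. On SCAFFOLD7 both sites were mCpGs, with 22 of 93 reads at 1863345 and 65 of 92 at 1863347. On SCAFFOLD10, 6 of 61 reads were methylated at 620169 and 36 of 61 at 620171, so the first site lay just under the limit for an mCpG, at 9.84%. In all 5 the second CpG was the higher, a count with no test, over pairs chosen for their difference. A sequence variant at a CpG changes its C and T counts as well, and its part was not tested.

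The deepest tandem pairs of 2 mCpGs, by contrast, showed similar levels. Among pairs with at most 170 reads at either site, the pair with the most reads lay on SCAFFOLD19, with 62 of 137 reads methylated at 1975980 and 49 of 133 at 1975982, or 45.3% and 36.8%. On SCAFFOLD11 the values were 23 of 123 reads at 384488 and 27 of 125 at 384490. On SCAFFOLD4 they were 95 of 112 at 3631410 and 81 of 112 at 3631412, the largest gap of the 5 with 84.8% and 72.3% (Fisher's exact p = 0.0336, adjusted p = 1). On SCAFFOLD77, 50 of 110 reads at 271484 and 51 of 112 at 271486 were methylated, and on SCAFFOLD237, 45 of 113 at 128941 and 40 of 108 at 128943. In 4 of these 5 pairs the level lay below 50% at both CpGs.

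Methylated tandem pairs, like other close pairs of mCpGs, lay mainly inside mCpG clusters, stretches in which most CpGs are methylated. Clusters were called from the same counts, by linking mCpGs with gaps of up to 500 bp and keeping stretches with more than 80% mCpGs and more than 40% methylated reads, and 5451 were found. They held 1053 of the 1169 tandem pairs of 2 mCpGs, or 90.1% (interval 88.2% to 91.7%), against 5279 of the 5864 pairs of 2 mCpGs at 3 to 6 bp, or 90.02% (interval 89.2% to 90.8%), so this share was that of close pairs in general. Of the pairs with a single mCpG, clusters held 97 of 629 in tandem, or 15.4% (interval 12.8% to 18.5%), against 634 of 3003 at 3 to 6 bp, or 21.1% (interval 19.7% to 22.6%). A tandem pair of 2 mCpGs was present in 909 clusters (16.7%), and 124 of these had 2 or more. Of all kept tandem pairs, 1294 (0.158%) lay in clusters.

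Clusters had few tandem CpGs. Of the 110612 CpGs in clusters, 3323 lay in a tandem, or 3.0% (interval 2.91% to 3.11%), against 20.9% of the CpGs outside. The distance of 2 bp was the most frequent of the short distances outside clusters but not inside them. Inside clusters the number of listed tandem pairs was 1665, with 2470, 1704, 1586 and 2065 pairs at 3 to 6 bp. The count of tandem pairs thus lay within the range of the others, at 0.851 times their mean. Outside clusters the ratio was 1.84. These comparisons were not made at equal local CpG density, and mCpGs lay mostly in sequence of low density. Among all covered pairs, tandem pairs were relatively fewer in such sequence. With 0 to 19 other CpGs there were 5872 tandem pairs against 19465 pairs 3 to 6 bp apart. With 80 to 99 there were 329925 against 581902. The part of density in the contrast between CpGs in clusters and outside was not tested.

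Inside clusters, tandem CpGs were mCpGs less often than other close pairs. The percentage was 85.1% for the sites of tandem pairs (interval 83.7% to 86.4%), against 89.9% at 3 bp (interval 88.9% to 90.8%), 92.6% at 4 bp, 92.5% at 5 bp and 92.5% at 6 bp (interval 91.6% to 93.4%). At the local CpG densities of the tandem pairs, pairs 3 to 6 bp apart in clusters had 92.0% (95% counting interval 91.4% to 92.6%). A cluster as called ends at 3 covered CpGs in a row that are no mCpGs, so it can hold a non-methylated pair but no longer run. Non-methylated tandem pairs in clusters numbered 144, and 62 of them (43.1%, interval 35.3% to 51.2%) had no methylated read at either site. Their median lower depth was 28 reads. They lay a median of 194 bp from the nearer end of their cluster (quartiles 77.5 bp and 492 bp), against 292 bp for the tandem pairs of 2 mCpGs (quartiles 121 bp and 507 bp).

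The tandem mCpGs of clusters had levels near those of other mCpGs, and those outside had low levels. Clusters were called from the same counts and kept by their share of methylated reads. Higher levels inside than outside therefore follow in part from the calling, and the contrast is no separate result. In clusters the median was 75% for 2225 tandem mCpGs and 77.4% for mCpGs in no tandem. Outside clusters it was 15.8% for 699 tandem mCpGs and 37.9% for mCpGs in no tandem. Close pairs outside clusters shared the low levels: counted over the sites of each pair, the median level of the mCpGs was 15.4% in tandem pairs, 18.2% at 3 bp, 18.8% at 4 bp, 20% at 5 bp and 20% at 6 bp. The agreement within pairs of 2 mCpGs was high in both places, with a correlation of 0.855 and a mean difference of 9.49 points over 1053 tandem pairs in clusters, and 0.891 and 8.80 points over 116 tandem pairs outside.

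The methylated tandem pairs were spread over many scaffolds. Of 6183 scaffolds, 3222 had a kept tandem pair and 207 had a tandem pair of 2 mCpGs. SCAFFOLD1 had the most, 82 of the 1169 (7.01%), followed by SCAFFOLD4 with 49 and SCAFFOLD7 with 43. These counts were not set against the size of the scaffolds. Scaffolds under 20 kbp held 46 of the 1169, or 3.93% (interval 2.96% to 5.21%), against 1.68% of all kept tandem pairs. Within windows of 1000 bp, 992 windows had 1 tandem pair of 2 mCpGs, 79 had 2, 5 had 3 and 1 had 4. The window with 4 lay on SCAFFOLD1595 from 1001 to 2000. Every covered CpG in it, 22 in all, was methylated, and 8 of them were tandem CpGs, with a methylation percentage of 56.0%, against 69.3% over all covered CpGs of the window. Of the windows with 3, the first by scaffold were SCAFFOLD1 from 2223001 to 2224000, with 78.8% at its 6 tandem CpGs, and SCAFFOLD183 from 9001 to 10000, with 82.2%.

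The alignment bears on dense sequence. The authors aligned reads to versions of the genome with all CpGs methylated or all non-methylated and allowed up to 4 mismatches, so a read of mixed state over 10 or more CpGs could exceed them. At least 10 CpGs stood in the 75 bp around 22.4% of the kept tandem pairs and around 15.9% of the tandem pairs with a single mCpG, but around 1 of the 1169 tandem pairs of 2 mCpGs. The part of lost reads in the percentages was not tested.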

How the data were processed

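WGBS-seq data of 1 pool of 50 females were analysed. The authors cut reads to 75 bp, used BWA with up to 4 mismatches against converted scaffolds and kept unique alignments without indels. The submitters' processing notes also name CASAVA 1.7. The BWA version, the scaffold release and duplicate removal are not given in the sources used here. The deposited counts are raw, whole numbers of unconverted C and of T per CpG, with strands and lanes summed (226856322 counts on 6183 scaffolds). Their precision is that of 10 or more reads per site, with a median of 17 at tandem CpGs.

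Pairs were neighboring listed CpGs. Percentages at equal density used direct standardization over the number of other CpGs within 500 bp, with 150 or more as a single class. The clusters also needed at least 4 covered CpGs. Fisher's exact test, the binomial calls and the standardization were tested on simulated data. Of regions, the text names the 3 longest runs with all CpGs covered and the 3 longest with mCpGs only, the 5 tandem pairs of smallest p, the 5 deepest of 2 mCpGs and the 3 windows of 1000 bp with most of these. The members and lists were chosen with earlier results of these data known. Alternatives were coverage minimums of 5, 20 and 50 reads, other mCpG calls, other density windows, and leaving out very deep CpGs, short scaffolds or pairs with a further CpG within 6 bp. Distances of 7 to 30 bp and a weighting by density and depth were added after seeing the data. Positions are those of the deposited table, gene annotation of another build was not used, and lanes apart were not analysed here. The tools were SciPy 1.17.1, NumPy 2.4.6, numba 0.67.0, pandas 2.3.3 and matplotlib 3.10.9, run in Python 3.11.15.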

Additional observations from a re-analysis of the deposited data

Results flagged for a closer look

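Tandem CpGs with 1 to 9 reads were left out of the comparisons, and some of their reads were methylated. They numbered 1259899, or 43.2% of the CpGs in a tandem, and 10483 of their 6987869 reads were methylated, a methylation percentage of 0.150% (interval 0.147% to 0.153%). The limit that a count of 0 would allow is 4.29e-05%. This limit is no measure of background: the value lies below the rate of unconverted Cs that the study gives for its unmethylated lambda DNA, so that these reads cannot be told apart from incomplete conversion. Other CpGs with 1 to 9 reads had 0.424% (interval 0.421% to 0.427%).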

How the results depend on the processing

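All alternatives kept the direction of the difference at equal density, with tandem pairs below pairs 3 to 6 bp apart. The percentage of mCpGs at tandem CpGs, 0.195% as reported, was 0.407%, 0.286% and 0.491% with minimums of 5, 20 and 50 reads. The difference at equal density, -0.113 points as reported, was -0.0757, -0.160 and -0.201 points, the share of tandem mCpGs with an mCpG as partner was 28.8%, 92.3% and 90.6% (78.8% as reported), and the correlation over tandem pairs with an mCpG was 0.827, 0.895 and 0.888 (0.911 as reported). Below 10 reads 1 methylated read exceeds 10%, so with a minimum of 5 reads single reads make mCpGs. With more than 20% methylated reads for an mCpG the values were 0.150%, -0.0940 points, 93.6% and 0.825, and with a binomial test against the rate of unconverted Cs in unmethylated lambda DNA, 0.186% of tandem CpGs were mCpGs and 85.2% had an mCpG as partner. With pairs that have no further CpG within 6 bp, the values were 0.395%, -0.227 points and 87.2%. Density over 1000 bp on either side gave -0.129 points. The ratio of tandem pairs to the others at equal density, 0.616 as reported, was 0.840 with 5 reads, 0.696 with 50 reads and 0.584 with density over 1000 bp. Fisher's exact test called 12 to 18 tandem pairs under the 6 alternatives run for it, but the number of pairs tested differed. It called 12 of 1292370 with 5 reads, 18 of 326883 with 20 reads and 14 of 41421 with 50 reads, against 12 of 821315 as reported. Of the 41421 pairs, 209 had an mCpG. The share of tandem pairs called thus rose with the minimum of reads. Leaving out very deep CpGs or scaffolds under 20 kbp moved no value beyond its interval, nor did weighting by density and depth, which was added after seeing the data (-0.111 points). A single pool limits every value to counting error, and no methylated read among 10 allows a level of up to 30%.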

Other observations

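Beyond 6 bp, the agreement of neighboring mCpGs did not fall evenly with distance. Pearson's correlation of the levels in pairs of 2 mCpGs, 0.864 for tandem pairs, was 0.567 at 8 bp, 0.690 at 10 bp, 0.674 at 11 bp, 0.491 at 16 bp, 0.600 at 19 bp, 0.392 at 25 bp and 0.297 at 30 bp. The mean difference in points followed the same course in reverse, with 9.42 for tandem pairs, 16.7 at 8 bp, 13.6 at 11 bp, 17.8 at 16 bp, 15.3 at 19 bp and 21.2 at 30 bp. Tandem pairs thus had the highest correlation of all distances from 2 to 30 bp, and pairs 3 bp apart, at 0.723, the next. Weighted to the local CpG densities of the tandem pairs of 2 mCpGs, the correlation was 0.565 at 8 bp, 0.682 at 10 bp, 0.485 at 16 bp and 0.587 at 19 bp. These distances were looked at after the values at 2 to 6 bp were known, pairs share reads, and no test was made.

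The percentage of mCpGs was higher at longer distances, with an uneven course. At the local CpG densities of the tandem pairs it was 0.181% for tandem pairs, 0.292% at 10 bp, 0.478% at 18 bp and 0.573% at 30 bp. The values at 17 and 19 bp, on both sides of 18 bp, were 0.395% and 0.401%.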
